A study of Homo sapiens with 14 samples.

Results

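The clustered replication-dependent histone genes were taken from the deposited table as every row whose platform symbol named an H1, H2A, H2B, H3 or H4 gene of the histone clusters, under its older (HIST1 to HIST4) or its current name. The rule found 76 of 28869 rows. A row with several such symbols was counted once, and 3 pairs of rows held identical values in every array (H4C15 with H4C14; H2AC19, H2AC21, H2AC20 and H2AC18; and H3C13, H3C15 and H3C14), which means shared probes. Each such pair was counted as 1, so 73 rows with distinct values are described, carrying 72 histone symbols, of which H2BC19P and H2BC20P are pseudogenes. Of these 73 rows, 6 were H1, 15 H2A, 23 H2B, 12 H3 and 14 H4, and 3 more joined genes of different classes. By older symbol, 56 rows belonged to the HIST1 cluster on chromosome 6 (1 of them also names H2BC12L, on chromosome 21), 14 to HIST2 and 2 to HIST3 on chromosome 1, and 1, H4C16, to HIST4 on chromosome 12. Of the 76 rows, 56 carried 1 symbol and 20 carried several. The genes of a class have near-identical coding sequences, so signal may be split or shared among rows, and a value is that of a row and not with certainty of 1 gene. No histone row was listed at 0 in any array.

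The clustered genes make the bulk of the histones that package DNA as it is copied. Their mRNAs have no introns and, as a rule, end in a stem-loop in place of a poly(A) tail, which the stem-loop binding protein SLBP recognises. Their transcription, driven through NPAT under cyclin E and CDK2, and the stability of their mRNAs are tied to S phase, so that in culture their level is known to follow the share of cells copying DNA. H2A, H2B, H3 and H4 form the nucleosome core, and H1 binds the linker DNA between cores.

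The cells were WI-38, a human lung fibroblast strain. Of the 14 Affymetrix Gene 1.0 ST arrays, 2 were labelled as primary cells at passage 19, 10 as A, cells immortalized with hTERT, at passages 39, 50, 58, 67 and 95 (2 arrays each) and 2 as B at passage 96, also immortalized with hTERT. A group is called primary or by its letter and passage (A39 to A95, B96). hTERT is the catalytic subunit of telomerase. The promoter or vector behind it and the meaning of the letters were not stated, and all cells were passaged weekly from a fixed seeding number. The labels call the 2 RNA samples of each group biological duplicates without saying whether they came from separate cultures, so p-values measure the spread between these arrays.

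Array labels and values went apart in several ways that touch every result on the histone rows. TERT, the introduced gene, read 7.07 in the array labelled primary replicate 1 and 11.70 in the array labelled primary replicate 2, against 10.67 to 12.18 in the 12 arrays labelled hTERT. Over all rows, the array most like a given array carried another group's label for 14 of 14 arrays, with r from 0.979 to 0.993, whereas arrays of one label correlated at 0.945 to 0.983. Arrays that were each other's closest were primary replicate 2 and A39 replicate 1, A39 replicate 2 and A50 replicate 1, A50 replicate 2 and A58 replicate 1, A58 replicate 2 and A67 replicate 1, and A95 replicate 2 and B96 replicate 1. Arrays are named below as labelled, and a direction between groups is a direction between labels. Whether some arrays carry the label of a neighbouring sample was not tested, and in that case the group of the printed values would differ. All 14 fibroblast markers had a mean above the median row mean of 7.39, with COL1A1 at 12.59 to 13.36, whereas the blood marker PTPRC read 5.20 to 5.90 and the epithelial marker EPCAM 5.31 to 6.0. Of the markers of other cell types, 2 of 6 endothelial, 0 of 5 blood, 3 of 7 epithelial and 1 of 4 muscle genes had a mean above that median, and none was listed at 0.

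The core promoters are shown first, because the letters before the start differ between histone classes. RefSeq windows (GRCh38.p14) of 300 bases, from 250 before to 50 after the start, were found for 64 of the 72 histone symbols. The sequences below are the 150 bases before the start of an H1 gene (H1-3, chr6:26234988-26235137, minus strand), an H4 gene (H4C4, chr6:26189113-26189262, minus strand) and 4 H2B genes whose rows differed from each other (H2BC5, chr6:26157971-26158120, plus strand; H2BC14, chr6:27814872-27815021, plus strand; H2BC12, chr6:27146859-27147008, minus strand; H2BC21, chr1:149886683-149886832, minus strand). Each runs 5′ to 3′ on the gene's strand, and capitals mark TATAAA and the class's own element: AAACACA for H1, GGTCCG for H4 and the octamer ATTTGCAT for H2B.
H1-3: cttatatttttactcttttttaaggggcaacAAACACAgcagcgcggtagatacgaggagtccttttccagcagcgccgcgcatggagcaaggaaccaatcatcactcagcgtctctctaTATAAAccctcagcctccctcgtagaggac
H4C4: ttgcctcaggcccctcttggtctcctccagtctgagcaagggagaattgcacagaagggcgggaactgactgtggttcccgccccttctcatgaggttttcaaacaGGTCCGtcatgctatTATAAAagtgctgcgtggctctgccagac
H2BC5: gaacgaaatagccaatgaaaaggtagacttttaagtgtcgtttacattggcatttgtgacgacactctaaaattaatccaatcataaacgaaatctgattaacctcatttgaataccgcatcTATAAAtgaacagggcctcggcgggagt
H2BC14: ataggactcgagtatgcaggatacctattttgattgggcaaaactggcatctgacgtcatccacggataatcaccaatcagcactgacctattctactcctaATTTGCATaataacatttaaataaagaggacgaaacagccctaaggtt
H2BC12: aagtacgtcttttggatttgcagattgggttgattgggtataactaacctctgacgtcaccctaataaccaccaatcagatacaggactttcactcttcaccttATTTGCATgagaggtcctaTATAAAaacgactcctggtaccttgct
H2BC21: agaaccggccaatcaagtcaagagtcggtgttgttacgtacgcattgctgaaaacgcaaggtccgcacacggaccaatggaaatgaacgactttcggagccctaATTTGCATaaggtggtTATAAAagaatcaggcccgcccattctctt

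Motifs were searched by exact letters on both strands. The H1 element AAACACA lay in the windows of 6 of 6 H1, 1 of 16 H2A and 2 of 11 H3 genes and in 5.64% of all 35093 windows. In H1-1 the only match lay on the opposite strand, at -183. The other H1 genes had a match on their own strand between -119 and -105. The octamer lay in 14 of 18 H2B and 11 of 16 H2A genes, 1 of 11 H3 genes and no H1 or H4 gene, against 1.77% of all windows. Only 1 H2A match was on the gene's own strand, at -98 in H2AC17. The H3 match, in H3C4, lay on the opposite strand at -119, as did that of H2AC7. An H2A and an H2B gene that start close together on opposite strands can share an octamer. That of H2AC11 lay on the opposite strand at -208 and that of H2BC11 at -47, with starts 248 bases apart. GGTCCG lay in 12 of 13 H4 genes, with its first base between -47 and -44 from the start, against 11.27% of all windows. It also lay in 1 of 16 H2A, 1 of 18 H2B and 1 of 11 H3 genes. The H2B gene is H2BC21, with a match at -91 and another on the opposite strand at -81, left in lower case above. CCAAT was found in every H1, H2A, H2B and H3 gene with a window and in 3 of 13 H4 genes, against 34.61% of all windows. TATAAA was found in 3 of 6 H1, 12 of 16 H2A, 12 of 18 H2B, 9 of 11 H3 and 7 of 13 H4 genes, against 11.54%. These counts take a match anywhere in the window, not only near the start. In H2BC4, H2BC14 and H2BC17 the only match lay on the opposite strand, at -220, -219 and -214. The same held for H2AC8 at -206, H3C6 at -157 and H3C4 at -33. In H2BC6 and H4C16 the only match lay on the gene's strand, at -189 and -250. Matches of different motifs overlapped in 3 of 68 histone windows. H2BC12, H2BC21 and H2BC14 all hold the octamer, H2BC5 has no exact match, and their rows behaved differently from each other, as described below. A match is a description of the letters, not of a factor's binding.

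Most histone rows were high and low in the same arrays, and these arrays did not follow the group labels. The median deviation of the 73 rows from their own means was 0.08 and 0.38 log2 in the primary arrays, 0.30 and -0.84 in A39, -0.80 and -0.65 in A50, -0.71 and 0.49 in A58, 0.27 and 0.84 in A67, 0.80 and -0.22 in A95, with -0.14 and 0.31 in B96. The 4 arrays A39 replicate 2, A50 replicate 1, A50 replicate 2 and A58 replicate 1 were low. In them, 5 to 9 of the 73 rows lay above their own mean. The arrays A67 replicate 2 and A95 replicate 1 were the highest, with 63 and 64 rows above their mean. Over all rows of the table, 39.1% to 58.5% lay above their mean in an array, and the median deviation stayed between -0.07 and 0.08. In bulk RNA, fewer cells in S phase and less histone RNA per cell cannot be told apart.

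**Figure D1:**
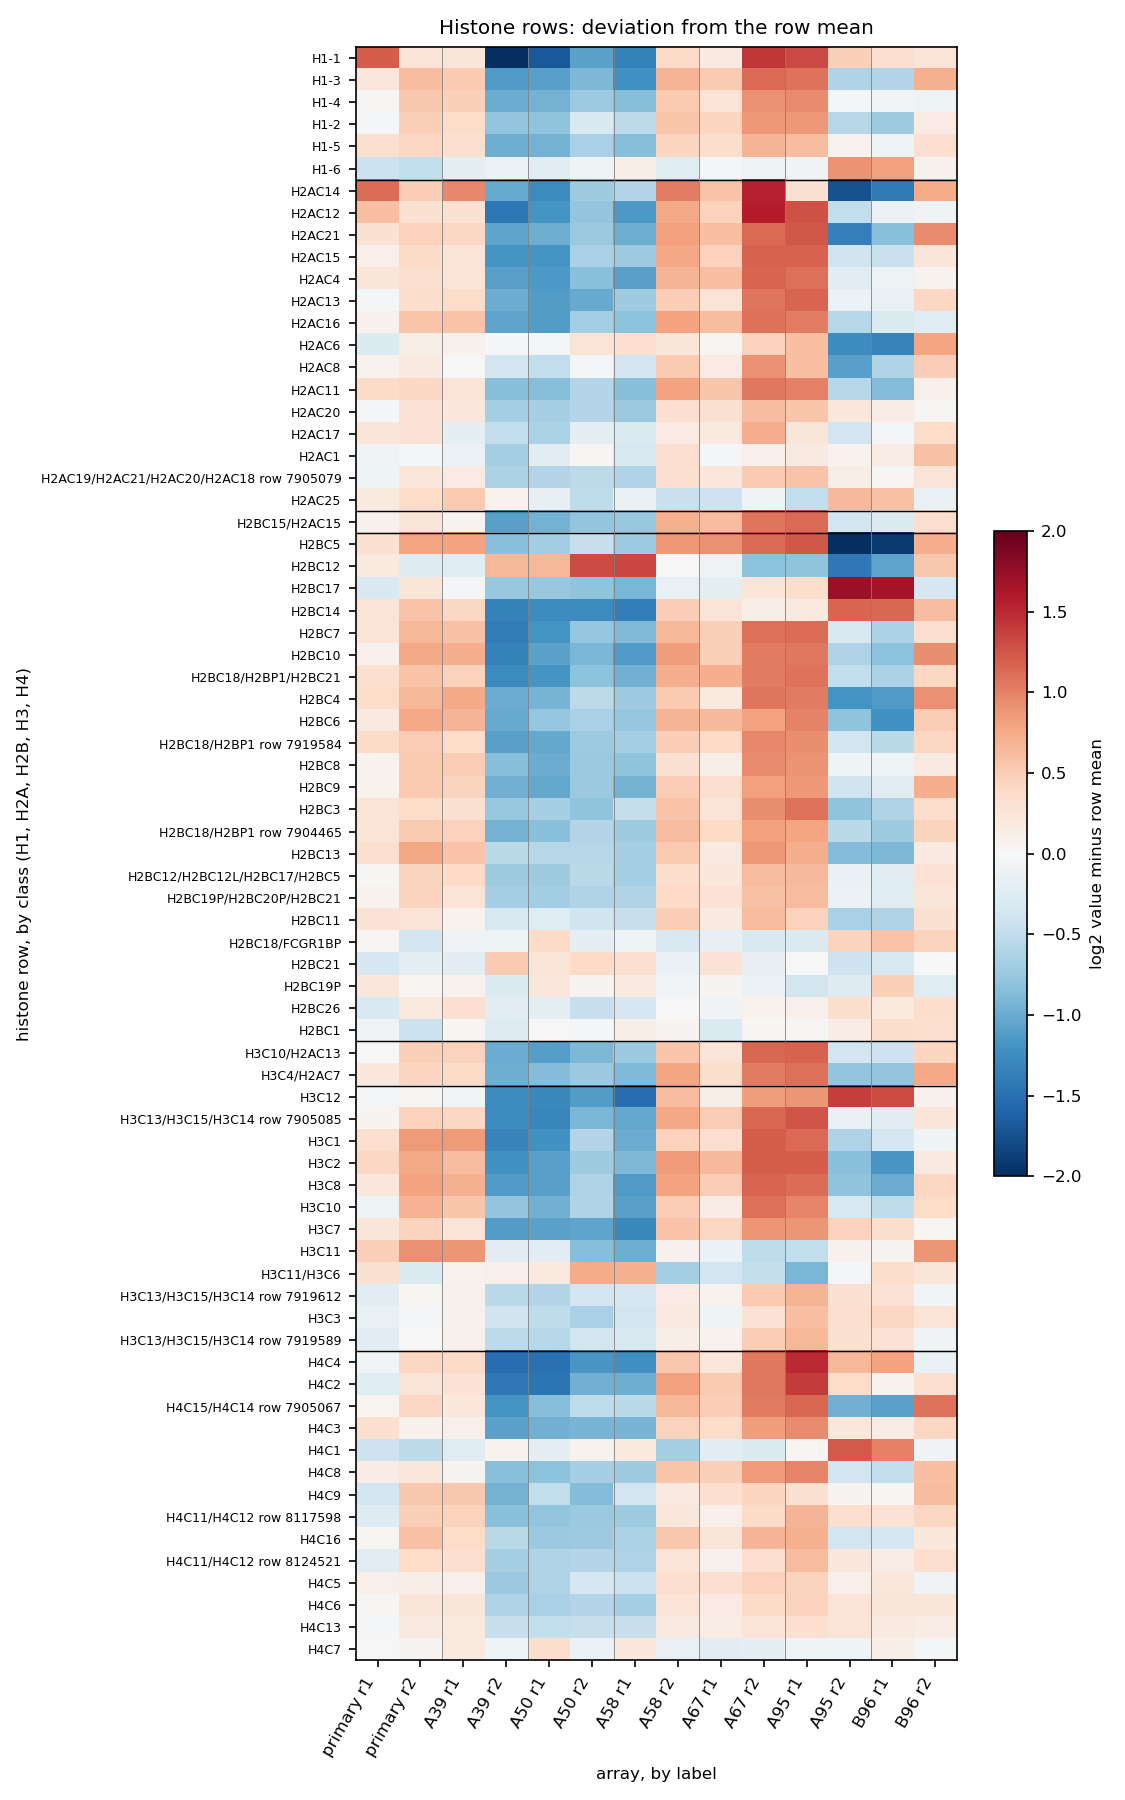
Heat map of the 73 distinct histone rows (vertical, grouped by class and ordered by range) in the 14 arrays (horizontal, by label; r1 and r2 are replicates 1 and 2), coloured by log2 value minus the row mean, with the scale limited to -2 and 2. The columns from A39 r2 to A58 r1 are low in most rows, and A67 r2 and A95 r1 are high.

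A39 replicate 2 held the lowest value of 26 rows, A50 replicate 1 of 15, A58 replicate 1 of 9 and A95 replicate 2 of 8, and A95 replicate 1 and A67 replicate 2 held the highest of 31 and 24.

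The histone rows ranged more widely over the arrays than most of the table. The range over the 14 arrays had a median of 1.94 log2 among the histone rows and 0.85 among all rows, and 35 histone rows (47.9%) ranged over at least 2 log2, against 6.6% of all rows. Within A39, replicate 2 was lower than replicate 1 in 68 of 73 histone rows, with a median difference of -1.18, and 44 rows (60.3%) differed by more than 1 log2, against 2.74% of all rows. Within A58, replicate 2 was higher in 62 rows, with a median of 1.19 and 48 rows (65.8%) beyond 1 log2, against 3.26% of all rows. Within A95, replicate 2 was lower in 60 rows, with a median of -0.97 and 39 rows (53.4%) beyond 1 log2, against 9.51%. Within the primary group, A50, A67 and B96 the median differences were smaller, 0.27, 0.20, 0.45 and 0.44. In A39, A58 and A95 the median difference between the arrays of 1 label was larger in size than the median difference between any groups compared below, which was at most 0.66. By class, 2 of 6 H1, 9 of 15 H2A, 10 of 23 H2B, 7 of 12 H3 and 4 of 14 H4 rows ranged over at least 2 log2. By cluster, the array medians spanned 1.78 log2 in HIST1, 1.35 in HIST2, 1.45 in the 1 row of HIST4 and 0.98 in the 2 rows of HIST3, H2AC25 and H2BC26, whose highest array median, 0.50, was that of A95 replicate 2.

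The H1 rows, genes of the linker histones, had a median deviation of -0.99 in A39 replicate 2 and 0.91 in A95 replicate 1. H1-1, a linker histone gene with the widest range of all histone rows, read 11.22 and 10.27 in the primary arrays, 10.25 and 7.98 in A39, 8.32 and 8.94 in A50, 8.66 and 10.39 in A58, 10.19 and 11.43 in A67, 11.33 and 10.49 in A95, with 10.35 and 10.27 in B96. Its lowest values were in A39 replicate 2, A50 replicate 1, A58 replicate 1 and A50 replicate 2, and A39 replicate 1 was not among them. H1-3 read 10.41 and 10.80 in the primary arrays, 10.71 and 9.05 in A39, 9.10 and 9.29 in A50, 8.97 and 10.86 in A58, 10.70 and 11.32 in A67, 11.26 and 9.58 in A95, with 9.59 and 10.89 in B96. H1-3 was lowest in the same 4 arrays but was also low in A95 replicate 2 and B96 replicate 1, where H1-1 was not. H1-6, the testis H1, had the smallest range of the class, 1.39, and read 5.90 to 7.29, with its highest values, 7.29 and 7.21, in A95 replicate 2 and B96 replicate 1.

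Among H2A rows, which ranged in class median from -0.85 to 1.06, the widest were H2AC14 and H2AC12. H2AC14 read 6.16 and 5.54 in the primary arrays, 6.0 and 4.04 in A39, 3.77 and 4.33 in A50, 4.46 and 6.07 in A58, 5.61 and 6.59 in A67, 5.35 and 3.31 in A95, with 3.63 and 5.79 in B96. It was highest in A67 replicate 2 and lowest in A95 replicate 2. H2AC12 read 8.16 and 7.86 in the primary arrays, 7.86 and 6.11 in A39, 6.39 and 6.77 in A50, 6.42 and 8.32 in A58, 8.02 and 9.14 in A67, 8.83 and 7.07 in A95, with 7.44 and 7.49 in B96. Its highest values were in A67 replicate 2 and A95 replicate 1. H2AC6, named after its values were seen, read 10.55 and 10.93 in the primary arrays, 10.90 and 10.78 in A39, 10.80 and 11.09 in A50, 11.15 and 11.06 in A58, 10.85 and 11.28 in A67, 11.42 and 9.56 in A95, with 9.49 and 11.60 in B96. It stayed at 10.78 to 11.15 from A39 replicate 2 to A58 replicate 1, where most histone rows were low, and read lowest in B96 replicate 1 and A95 replicate 2. H2AC25 of the HIST3 cluster had the smallest range of the class, 1.15. H2AC1, a testis gene, read 5.26 to 6.52.

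The H2B rows formed the largest class, and some of them differed in opposite directions in the same arrays. H2BC5 read 9.48 and 9.97 in the primary arrays, 9.99 and 8.35 in A39, 8.48 and 8.72 in A50, 8.46 and 10.05 in A58, 10.09 and 10.32 in A67, 10.42 and 7.04 in A95, with 7.26 and 9.90 in B96. The row read 8.35 to 8.72 from A39 replicate 2 to A58 replicate 1, and its lowest values were in A95 replicate 2 and B96 replicate 1. H2BC14 read 11.48 and 11.77 in the primary arrays, 11.61 and 9.85 in A39, 9.94 and 9.93 in A50, 9.81 and 11.69 in A58, 11.48 and 11.31 in A67, 11.40 and 12.37 in A95, with 12.34 and 11.81 in B96. H2BC14 was low from A39 replicate 2 to A58 replicate 1 as well, yet had its highest values in A95 replicate 2 and B96 replicate 1, the arrays in which H2BC5 was lowest. H2BC17 read 7.19 and 7.73 in the primary arrays, 7.47 and 6.74 in A39, 6.74 and 6.69 in A50, 6.58 and 7.34 in A58, 7.30 and 7.73 in A67, 7.84 and 9.22 in A95, with 9.16 and 7.15 in B96. H2BC17 was likewise highest in those 2 arrays. The testis gene H2BC1 had the smallest range of the class, 0.79, and read 5.57 to 6.36.

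The H3 rows had class medians of -1.02 in A50 replicate 1 and 0.88 in A95 replicate 1. H3C12 read 9.66 and 9.72 in the primary arrays, 9.64 and 8.43 in A39, 8.41 and 8.59 in A50, 8.18 and 10.33 in A58, 9.83 and 10.54 in A67, 10.59 and 11.08 in A95, with 11.01 and 9.79 in B96. H3C12 was lowest from A39 replicate 2 to A58 replicate 1 and highest in A95 replicate 2 and B96 replicate 1. H3C2 read 11.45 and 11.79 in the primary arrays, 11.66 and 9.82 in A39, 9.95 and 10.33 in A50, 10.14 and 11.88 in A58, 11.68 and 12.25 in A67, 12.25 and 10.19 in A95, with 9.87 and 11.21 in B96. H3C2 was as low in A95 replicate 2 and B96 replicate 1 as from A39 replicate 2 to A58 replicate 1. H3C11 read 11.67 and 12.11 in the primary arrays, 12.08 and 10.99 in A39, 10.98 and 10.35 in A50, 10.22 and 11.29 in A58, 11.09 and 10.69 in A67, 10.71 and 11.29 in A95, with 11.26 and 12.08 in B96. H3C11 was lowest in A50 replicate 2 and A58 replicate 1 and also low in A67 replicate 2 and A95 replicate 1, where most rows were highest. The rows shared by H3C13, H3C15 and H3C14 differed among themselves, with ranges of 2.56 and 1.23 for the widest and the narrowest.

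The H4 rows had the smallest class range of the array medians, 1.44 log2, against 1.90 for H1 and H3, 1.91 for H2A and 1.56 for H2B. H4C4 read 9.26 and 9.72 in the primary arrays, 9.69 and 7.79 in A39, 7.82 and 8.15 in A50, 8.08 and 9.84 in A58, 9.54 and 10.36 in A67, 10.80 and 9.97 in A95, with 10.12 and 9.17 in B96. H4C2 read 9.74 and 10.25 in the primary arrays, 10.28 and 8.55 in A39, 8.52 and 9.02 in A50, 9.01 and 10.81 in A58, 10.51 and 11.04 in A67, 11.38 and 10.35 in A95, with 10.06 and 10.30 in B96. Both rows were lowest from A39 replicate 2 to A58 replicate 1 and highest in A95 replicate 1, and both were higher in A95 replicate 2 than in any of the arrays where they were lowest. H4C7 had the smallest range of all histone rows, 0.57, and read 5.87 to 6.44.

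Against this shared course stood 5 rows, H2BC12, H2BC21, H4C1, H1-6 and the row shared by H3C11 and H3C6, which were higher in A39 replicate 2 than in replicate 1 and lower in A58 replicate 2 than in replicate 1. They were singled out after their values were seen. In A39 the difference was 0.91 for H2BC12, 0.74 for H2BC21 and 0.31 for H4C1. It was close to none, 0.08 and 0.04, for H1-6 and the row shared by H3C11 and H3C6. These last rows were dim, with a mean above that of 28.6% and 8.3% of all rows. H2BC12 read 9.72 and 9.27 in the primary arrays, 9.28 and 10.19 in A39, 10.19 and 10.84 in A50, 10.87 and 9.54 in A58, 9.42 and 8.71 in A67, 8.72 and 8.10 in A95, with 8.47 and 10.07 in B96. It was highest from A39 replicate 2 to A58 replicate 1, where most histone rows were lowest. It was low in A67 replicate 2 and A95 replicate 1, where most were highest, and lowest in A95 replicate 2 and B96 replicate 1. H2BC21, another H2B gene, read 8.60 and 8.75 in the primary arrays, 8.72 and 9.46 in A39, 9.20 and 9.33 in A50, 9.26 and 8.80 in A58, 9.23 and 8.78 in A67, 8.93 and 8.53 in A95, with 8.62 and 8.93 in B96. Its range was 0.93, and its value of 9.23 in A67 replicate 1 lay among those of A39 replicate 2 to A58 replicate 1. H4C1 read 9.32 and 9.20 in the primary arrays, 9.49 and 9.80 in A39, 9.54 and 9.80 in A50, 9.92 and 9.06 in A58, 9.50 and 9.45 in A67, 9.76 and 10.95 in A95, with 10.73 and 9.66 in B96. H4C1 was highest in A95 replicate 2 and B96 replicate 1. The row shared by H3C11 and H3C6 read 5.48 and 4.90 in the primary arrays, 5.24 and 5.28 in A39, 5.37 and 5.91 in A50, 5.88 and 4.51 in A58, 4.79 and 4.69 in A67, 4.26 and 5.13 in A95, with 5.53 and 5.42 in B96. It was lowest in A95 replicate 1 and highest in A50 replicate 2. Rows that name H2BC12 or H2BC21 together with other genes did not share this course. The row of H2BC12, H2BC12L, H2BC17 and H2BC5 read 12.13 and 11.03 in A39, and 2 rows that name H2BC21 with other H2B genes read 11.01 and 9.28, and 11.35 and 10.41.

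**Figure D2:**
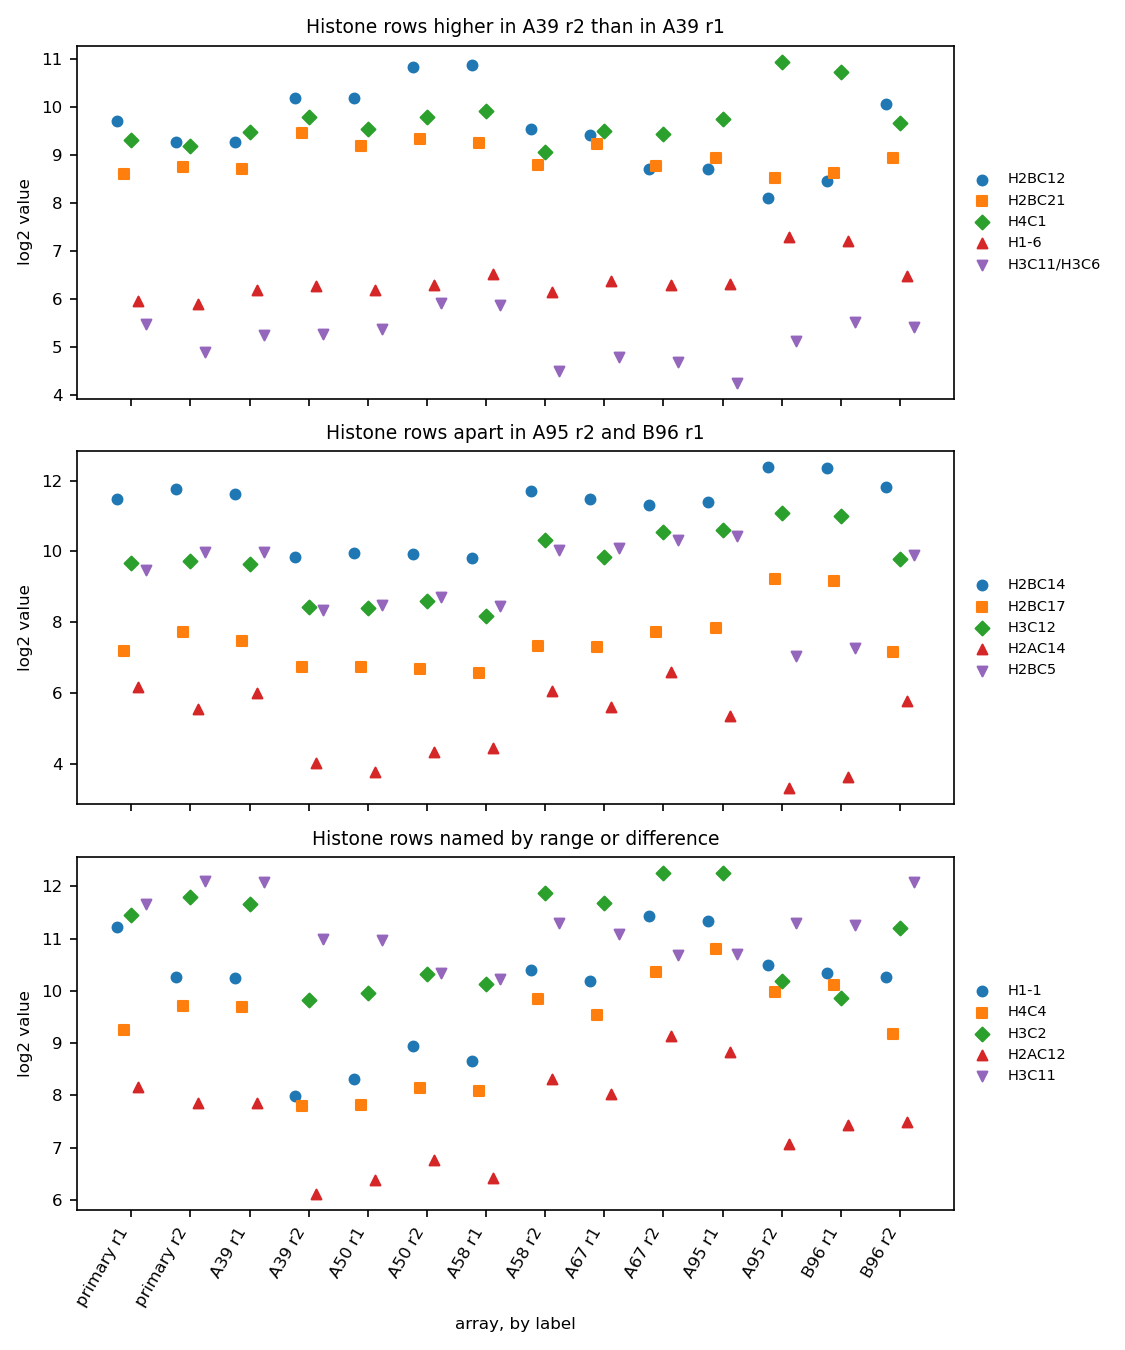
Log2 values (vertical) of 15 histone rows in the 14 arrays (horizontal, by label), 1 point per array. The upper panel holds rows higher in A39 replicate 2 than in replicate 1, and the lower panel rows named by range or difference. The middle panel holds rows highest or lowest in A95 replicate 2 and B96 replicate 1. Among these, H2AC14, at 3.31 and 3.63, lay close to its 3.77 in A50 replicate 1. H2BC12 reaches 10.84 and 10.87 in A50 replicate 2 and A58 replicate 1, arrays in which H1-1 is at 8.94 and 8.66.

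The arrays A95 replicate 2 and B96 replicate 1, each other's closest, divided the histone rows. There, 28 and 30 of the 73 rows lay above their mean, against 58.5% and 56.0% of all rows. These arrays also stood apart over the whole table: 7.44% to 10.77% of all rows differed by more than 1 log2 between either of them and another array, against 1.25% between them and 0.54% to 6.48% among the other 12. The fibroblast marker S100A4 read 6.89 and 6.26 in them and 8.03 to 11.37 elsewhere, and the endothelial marker PECAM1 8.44 and 7.83 against 6.17 to 7.04. These 2 genes do not stand for their lists. The median deviation of the 14 fibroblast markers was -0.28 and -0.31 in these arrays and lowest, -0.525, in A67 replicate 1. That of the 6 endothelial markers was 0.13 and 0.04, against 0.13 in A95 replicate 1. The summed log2 value of the 6 endothelial markers was 42.18 to 43.42 in A95, 41.6 to 42.79 in B96 and 40.35 to 42.45 in the other groups. The part of these differences in the histone values was not tested. Against the majority of A95, 13 rows were higher in replicate 2 than in replicate 1, among them H2BC17 by 1.38, H4C1 by 1.19, H2AC25 by 1.14, H1-6 by 0.98, H2BC14 by 0.97, H3C11 by 0.58 and H3C12 by 0.49 log2. Several H2A and H2B genes lie head to head and share the DNA between their starts, which was 194 to 248 bases in 11 such pairs of the annotation. Both genes had a row of their own in 9 pairs. Replicate 2 minus replicate 1 had the same sign in both genes of 8 pairs in A39, 5 in A58 and 6 in A95. Of all 73 histone rows, 68, 62 and 60 went 1 way in these labels, so most rows share a sign whether paired or not. These counts therefore do not set the head-to-head pairs apart. In the pair of H2AC13 and H2BC13 it was -1.36 and -1.12 in A39, 1.21 and 1.19 in A58 and -1.28 and -1.59 in A95. In the pair of H2AC14 and H2BC14, replicate 2 minus replicate 1 was -1.96 and -1.76 in A39 and 1.61 and 1.88 in A58, but -2.04 and 0.97 in A95. In the pair of H2AC17 and H2BC17 the A95 differences were -0.62 and 1.38, and in that of H2AC20 and H2BC21 the A39 differences were -0.88 and 0.74. The pair of H2AC6 and H2BC4 differed by -0.12 and -1.74 in A39.

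The S-phase and mitosis genes were low in the same 4 arrays as the histone rows, but were not on the same side as them in every array. The 39 DNA replication and S-phase genes had median deviations of -0.83 in A39 replicate 2 and -0.88 in A50 replicate 1. They had -0.66 in A50 replicate 2 and -0.795 in A58 replicate 1, with 0.40 in A58 replicate 2. In A67 replicate 2 and A95 replicate 1 the medians were 0.92 and 0.88. The 28 mitosis genes had -0.99, -0.99, -0.53, -0.62, 0.47, 0.74 and 0.73 in these arrays, in the same order. In 4 other arrays the DNA replication genes and the histone rows lay on opposite sides of their means: -0.05 against 0.30 in A39 replicate 1, 0.14 against -0.22 in A95 replicate 2, 0.16 against -0.14 in B96 replicate 1 and -0.08 against 0.31 in B96 replicate 2. CCNE2, a cyclin E gene, read 8.88 and 8.53 in the primary arrays, 8.40 and 7.44 in A39, 7.52 and 8.42 in A50, 8.25 and 9.46 in A58, 9.42 and 10.32 in A67, 10.30 and 8.82 in A95, with 9.13 and 8.50 in B96. It was lowest in A39 replicate 2 and A50 replicate 1 and highest in A67 replicate 2 and A95 replicate 1. MKI67, a proliferation marker, read 8.79 in A39 replicate 2 and 10.91 in A67 replicate 2. CCNE1, the other cyclin E gene, read 7.33 and 7.97 in A39 and was highest, at 8.20, in A50 replicate 1, where CCNE2 and most histone rows were low. In the primary arrays both lists had the opposite order to the histone rows: they were higher in replicate 1 (0.28 and 0.51) than in replicate 2 (0.08 and 0.11), whereas the histone rows were higher in replicate 2, and the DNA replication genes had the opposite order in B96 too. The part of the share of cycling cells in the histone levels was not tested.

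Genes that act on histone mRNA ranged less as a list. That list shares CCNE1, CCNE2 and SLBP with the DNA replication list, and CCNE2 was its widest gene, with a range of 2.88 log2. The 24 genes of histone mRNA transcription and 3 prime processing had array medians that spanned 0.44 log2, and 23 histone chaperones spanned 0.54, against 1.68 for the histone rows. SLBP read 9.49 in A58 replicate 1 and 10.49 in A67 replicate 2. NPAT, the coactivator of histone transcription, read 9.43 and 9.27 in the primary arrays, 9.29 and 8.82 in A39, 8.83 and 9.16 in A50, 9.11 and 9.71 in A58, 9.53 and 9.92 in A67, 10.02 and 8.64 in A95, with 8.79 and 9.55 in B96. CHAF1B, a subunit of the chromatin assembly factor, read 8.07 in A50 replicate 2 and 10.46 in A95 replicate 2, and thus was highest in an array where 45 of 73 histone rows lay below their mean. Among 9 replication-independent variants, whose array medians spanned 0.73, H2AZ1 read 10.66 in A95 replicate 2 and 12.27 in A95 replicate 1, and H2AX 9.43 in A50 replicate 1 and 10.63 in A67 replicate 2. H3-3B, which codes for the variant H3.3, read 11.26 in B96 replicate 2 and 12.37 in A95 replicate 2. A list of 130 snoRNA rows, which like most histone mRNAs have no poly(A) tail, had array medians that spanned 0.51 log2, from -0.23 in A50 replicate 1 to 0.27 in A67 replicate 2.

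**Figure D3:**
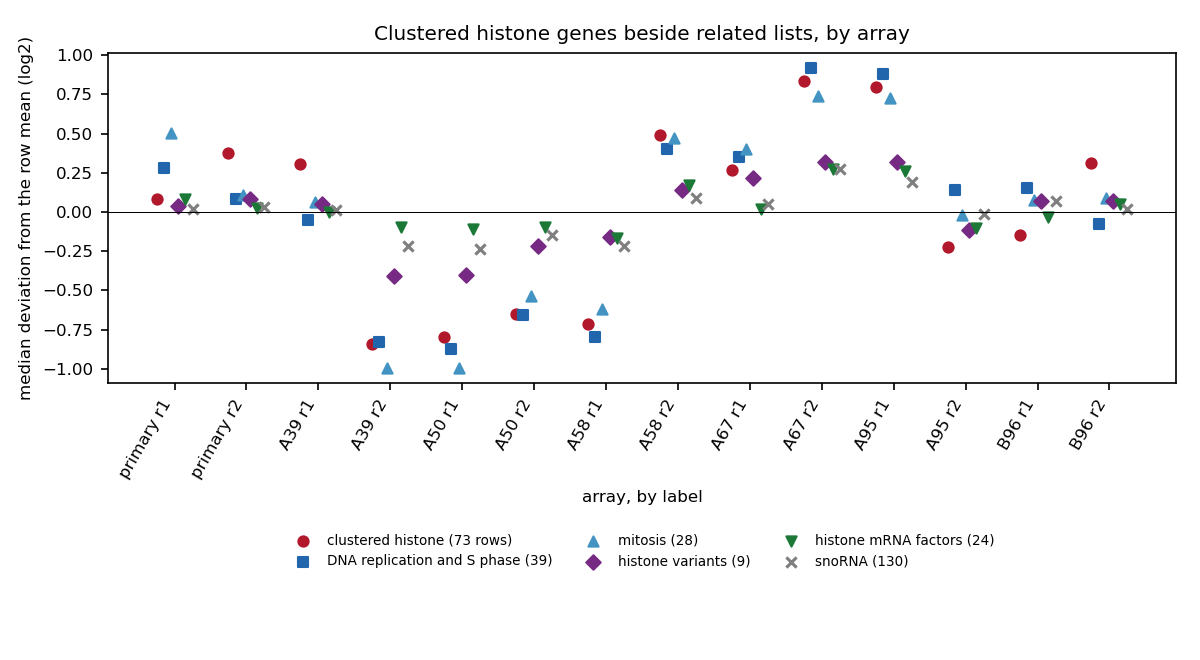
Median deviation from the row mean in log2 (vertical) of the 73 histone rows and of 5 other lists in the 14 arrays (horizontal, by label), 1 point per list and array. Histone, DNA replication and mitosis genes span 1.68, 1.79 and 1.73 log2 from lowest to highest array, and the histone mRNA factors 0.44.

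The earliest hTERT group was compared with the primary cells. The histone rows were lower in A39 in 62 of 73 cases, against 44.1% of all rows, with a median difference of -0.53 log2 against 0.03. No row passed limma with Benjamini-Hochberg adjustment over all rows at 0.05 (0% of all rows did), and at an unadjusted p under 0.05 the count of histone rows was 0, against 1.2% of all rows. The groups did not overlap in 10 rows lower in A39 (12.8% of all rows) and 2 higher (15%). H1-1 averaged 9.12 ± 1.61 in A39 and 10.74 ± 0.67 in the primary arrays (SD, n = 2), a difference of -1.63 ± 0.76 (SE). H2AC12 differed by -1.03 ± 0.75 and H2BC14 by -0.90 ± 0.63, while H2BC21, H4C1 and H1-6 were higher by 0.42 ± 0.28, 0.39 ± 0.43 and 0.31 ± 0.31. All of these had a limma adjusted p of 1.0. The median rested on 1 array: it was 0.10 without A39 replicate 2, -1.09 with A39 replicate 1 left out, -0.69 without primary replicate 1 and -0.33 without primary replicate 2, the array with TERT at the hTERT level. The DNA replication and mitosis genes were lower in A39 in 39 of 39 and 28 of 28 cases, with medians of -0.60 and -0.83, which were -0.23 and -0.26 without A39 replicate 2 (-0.995 and -1.35 with replicate 1 left out).

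The ends of the course labelled A differed in the other direction. In A95, 61 of 73 rows were higher than in A39, against 58.8% of all rows, with a median of 0.52 against 0.07 log2. No row passed the limma test (0% of all rows), and at an unadjusted p under 0.05, 9 rows were higher and 1 lower, against 4.88% and 4.33% of all rows. The groups did not overlap in 14 rows higher in A95 (22.7% of all rows) and 2 lower (15.4%). H3C12 averaged 10.84 ± 0.35 in A95 and 9.04 ± 0.86 in A39, a difference of 1.80 ± 0.65 (limma adjusted p = 0.528). H1-1 differed by 1.80 ± 0.76 (limma adjusted p = 0.535) and H4C4 by 1.65 ± 0.68 (limma adjusted p = 0.53). H2BC12 averaged 8.41 ± 0.44 against 9.74 ± 0.64, a difference of -1.33 ± 0.58 (limma adjusted p = 0.535), H2AC14 differed by -0.69 ± 0.91 and the row shared by H3C11 and H3C6 by -0.57 ± 0.42. The median was -0.06 without A39 replicate 2, 1.07 without A39 replicate 1, 0.05 without A95 replicate 1 and 1.04 without A95 replicate 2. H2AC14 changed sign, to 0.33 without A95 replicate 2 and 0.29 without A39 replicate 1. The DNA replication and mitosis genes were higher in A95 in 39 of 39 and 28 of 28 cases, with medians of 0.85 and 0.845. These were 0.435 and 0.30 without A39 replicate 2, 1.30 and 1.35 with A39 replicate 1 left out, and 0.52 and 0.44 with A95 replicate 1 left out.

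The letter B cells at passage 96 were compared with A95. In B96, 53 of 73 rows were lower, against 50.4% of all rows, with a median of -0.23 against -0.01 log2. No row passed the limma test (0% of all rows), the count at an unadjusted p under 0.05 was 0 (2.28% of all rows), and the groups did not overlap in 4 rows higher (9.83%) and 9 lower (9.84%). H4C4 differed by -0.74 ± 0.68, H4C2 by -0.69 ± 0.64 and H3C2 by -0.68 ± 0.80, and H2BC12 by 0.86 ± 0.58, the row of H3C11 and H3C6 by 0.78 ± 0.42 and H3C11 by 0.67 ± 0.46, all with a limma adjusted p of 1.0. The median was 0.26 without A95 replicate 1, -0.69 without A95 replicate 2, 0.01 without B96 replicate 1 and -0.51 without B96 replicate 2. Without A95 replicate 1, H3C2 changed sign to 0.35. The DNA replication genes were lower in B96 in 39 of 39 cases, with a median of -0.43, which was -0.05, with 17 of 39 higher, without A95 replicate 1 and -0.85 without A95 replicate 2. The comparisons of A95 with A39 and of B96 with A95 share the A95 arrays, and those of A39 with the primary arrays and of A95 with A39 share the A39 arrays.

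The median difference of the histone rows was -0.47 from A39 to A50, 0.63 from A50 to A58, 0.66 from A58 to A67 and -0.28 from A67 to A95, with 11, 66, 63 and 23 of 73 rows higher at the later passage, against 51%, 47.9%, 47.3% and 59.5% of all rows. Each median rested on single arrays. From A39 to A50 it was -1.12 with A39 replicate 2 left out but 0.135 with replicate 1 left out, and from A50 to A58 it was 0.015 without A58 replicate 2 and 1.27 without A58 replicate 1. From A58 to A67 it was 0.065 without A58 replicate 1, 1.32 without A58 replicate 2 and 0.38 without A67 replicate 2. From A67 to A95 it was -0.80 without A95 replicate 1, 0.25 without A95 replicate 2, -0.52 without A67 replicate 1 and -0.08 without A67 replicate 2. No row passed the limma test in any step, and 0 histone rows had an unadjusted p under 0.05 in any of them, against 0.797%, 0.984%, 1.34% and 3.13% of all rows. Neither did any histone row pass the F test over the 7 groups, where 2 rows, H3C3 and H3C12, had an unadjusted p under 0.05 against 4.62% of all rows, and the smallest limma adjusted p was 0.943.

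Over the 10 arrays labelled A, 63 of 73 histone rows had a positive slope with passage, against 58.5% of all rows, and the median slope was 0.14 log2 per 10 passages against 0.01. The limma trend called 81 rows of the table (0.281%; 0.0416% rising and 0.239% falling) but no histone row. At an unadjusted p under 0.05, 19 histone rows had a positive and 1 a negative slope, against 9.89% and 8.83% of all rows. H1-1, H3C12 and H4C4 had slopes of 0.40 ± 0.14, 0.40 ± 0.11 and 0.38 ± 0.13 (SE; limma adjusted p = 0.181, 0.124 and 0.159). H2BC12 had a slope of -0.32 ± 0.10 (limma adjusted p = 0.148), the row of H3C11 and H3C6 -0.14 ± 0.07 and H2BC21 -0.08 ± 0.04. H2BC17, with 0.30 ± 0.08, had the smallest limma adjusted p of a histone row, 0.103. It was the only histone row to pass the test with passage as a random block (limma adjusted p = 0.0499). The share of all rows called with that block is not given here, so this call cannot be set against the whole table. The consensus correlation of that block was negative, -0.164. H2BC17 read 9.22 in A95 replicate 2 and 6.58 to 7.84 in the other arrays labelled A. By class the median slope was 0.18 for H1, 0.14 for H2A, 0.12 for H2B, 0.16 for H3 and 0.14 for H4, with 8 of 14 H4 rows and 2 of 23 H2B rows at a positive slope with an unadjusted p under 0.05.

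The DNA replication and mitosis lists had positive slopes in 39 of 39 and 28 of 28 genes, with medians of 0.21 and 0.20, and the histone mRNA factors, chaperones and variants had medians of 0.03, 0.04 and 0.05. No gene of these lists passed the limma test in any comparison. The median histone slope was 0.25 without A95 replicate 2 and 0.09 without A95 replicate 1, and 0.29 over passages 39 to 67.

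**Figure D4:**
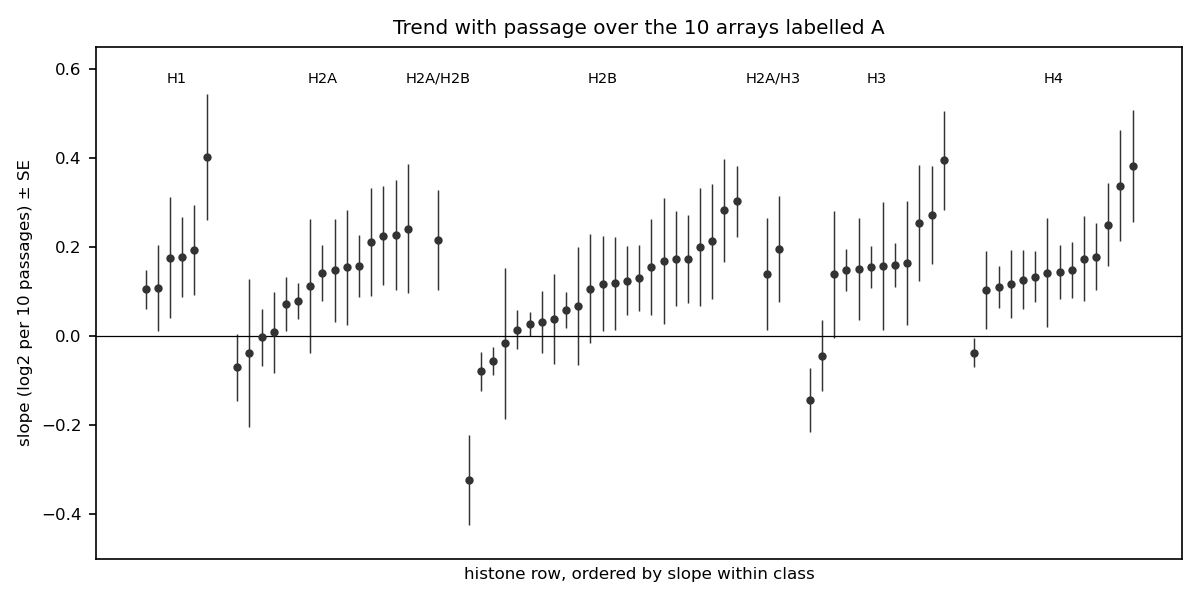
Slope with passage in log2 per 10 passages (vertical, with SE bars) of the 73 histone rows over the 10 arrays labelled A, ordered by slope within class (horizontal). Of the 73 points, 63 lie above 0, and H2BC12 at -0.32 is the lowest.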

How the data were processed

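RNA of 14 samples was measured on 1-colour arrays. The deposited table holds 1 log2 value per array in each of 28869 rows. The log2 scale is read from the values, which run from 0 to 14.27 with array medians of 7.26 to 7.48. Background correction, summarisation, normalization and genome build: not given in the sources used here. Symbols came from the platform's annotation, with 1 symbol for 19310 rows, several for 1752 and none for 7807. Values were used as deposited, with no filter. The number of arrays limits the precision.

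With limma 3.58.1 (R 4.3.3), group means were estimated for every row from the 14 arrays (lmFit, eBayes; 7 residual and 3.43 prior degrees of freedom), and a slope per 10 passages from the 10 arrays labelled A. Tests were two-sided, with Benjamini-Hochberg adjustment over all rows at 0.05. The fit was tested on simulated data. The histone rows and gene lists were chosen with earlier results of these data known. Named histone rows are the 3 largest differences each way in each comparison and, per class, the 2 widest and 1 narrowest in range, and rows passing any test, while others such as H2AC6, H2AC1, H2AC17 and H2AC20 were named after their values were seen. For a listed gene with several rows, the row with the highest mean stands for it. The replicate numbers did not pair the samples: correlations between groups of the difference between replicates ran from -0.529 to 0.196. Alternatives covered scaling, a filter on dim rows, the prior, rows with 1 symbol, the arrays in the fit, the replicate block and leaving out each array.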

Additional observations from a re-analysis of the deposited data

How the results depend on the processing

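No histone row passed the limma test in any comparison under quantile normalization, centring on array medians, the filter on rows below the 30th percentile, the robust prior or with any 1 array left out. With passage as a random block (consensus correlation -0.164), H2BC17 alone of the histone rows passed in the trend (slope 0.30, limma adjusted p = 0.0499). The share of all rows called in that setting is not given here. The trend's median was 0.289 over passages 39 to 67, against 0.144.

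Leaving out 1 array moved the medians widely: from -1.09 to 0.10 for A39 against primary, -0.06 to 1.07 for A95 against A39, -0.69 to 0.26 for B96 against A95, -1.12 to 0.14 for A50 against A39, 0.015 to 1.27 for A58 against A50, 0.07 to 1.32 for A67 against A58, -0.80 to 0.25 for A95 against A67, and 0.085 to 0.254 for the trend. H2AC14 in A95 against A39 ran from -1.71 to 0.33, and H3C2 in B96 against A95 from -1.71 to 0.35. The cause was not tested.

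The replicate block called 0 histone rows in every comparison and left the medians at -0.53, 0.515 and -0.23, but the numbers do not pair the samples: of 21 pairs of groups, 4 correlated above 0.1. Without detection calls, the signal below which a row no longer follows its RNA cannot be given.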
